A study of Homo sapiens with 61 samples.

Results

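The genes described here are 40 DNA replication and mitosis genes, whose transcripts are made mainly by dividing cells, measured in human neurons made from induced pluripotent stem cells. The members were taken by symbol from a list of proliferation genes, and all 40 were found among the 58440 gene identifiers of the count tables. The list was put together with values of these data in view, since the fall of TICRR in wild type neurons given vincristine led to it. For that reason every value of the wild type vincristine contrast is given as a description, from which no test result is read, and TICRR is not tested against untreated wild type.

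RNA was sequenced in 61 libraries in 14 groups, from neurons of WTC11, an established induced pluripotent stem cell line, differentiated by forced expression of the transcription factor NGN2. In experiment 1 (32 libraries, 4 in each group) the lines carried a doxycycline-driven NGN2 cassette and were wild type (WT), DLK KO (knockout of MAP3K12), LZK KO (knockout of MAP3K13) or DLK LZK double KO (double KO). In experiment 2 (29 libraries) i3Neurons with the CRISPR interference machinery carried by lentivirus a guide RNA (gRNA) that targets either ATF2 or JUN, or a scrambled one (Control gRNA), with 5 libraries in each group and 4 for ATF2 gRNA with vincristine. On day 14 each culture was given 5 nM vincristine, a drug that stops microtubules from assembling, or DMSO vehicle (untreated here), and RNA was taken 16 hours later, while the extraction protocol speaks of 10 to 14 days of differentiation. The labels do not say how many clones stand behind a line, nor whether the replicates are separate cultures, so p-values measure the spread between these samples.

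Total counts ran from 8410729 to 14647819 in experiment 1 and from 38925807 to 88392414 in experiment 2, and the members took 0.0212% to 0.0453% and 0.0291% to 0.0361% of them. Each targeted gene was lower where the label says so, in all untreated libraries. MAP3K12 stood at 89.7 to 94.3 CPM (counts scaled by library total and TMM factors) in WT, at 23.7 to 29.7 in DLK KO and at 17.4 to 21.8 in double KO. MAP3K13 stood at 96.8 to 101 CPM in WT, at 30.1 to 34.2 in LZK KO and at 26.7 to 31.0 in double KO. ATF2 stood at 111 to 158 CPM in Control gRNA and at 0.106 to 0.877 in ATF2 gRNA, and JUN at 81.7 to 97.8 in Control gRNA and at 2.24 to 3.47 in JUN gRNA. In ATF2 gRNA untreated JUN stood at 18.2 to 22.5 CPM, also below Control gRNA. The WT vincristine libraries had the widest spread between replicates, with a median SD over genes of 0.26 on the log2 scale, against 0.131 to 0.221 in the other 13 groups. WT vincristine replicate 4 stood apart, as its counts differed from those of the other replicates by a chi-square per degree of freedom of 27.84 to 40.77, against 3.61 to 6.77 among the other 3. The 9 neuron markers summed to between 7318 and 14242 CPM in every library, and bulk libraries cannot tell fewer cells of a type apart from less RNA per cell.

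DNA is copied once in each cell cycle. In G1 the proteins ORC, CDC6 and CDT1 load the ring of MCM2 to MCM7 onto origins, and TICRR (treslin), CDC45 and the GINS complex then turn the ring into a moving helicase. The factor E2F1 and cyclin E drive this step, PCNA clamps the polymerases to DNA, and RRM1, RRM2 and TYMS make the deoxynucleotides. CDK1 with cyclins A and B then starts mitosis, in which AURKA, AURKB, PLK1, TPX2 and the centromere proteins build and check the spindle. Neurons have left the cell cycle, so the mitotic transcripts are commonly read as a mark of cells that still divide, while several replication genes keep a level in resting cells.

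Many promoters of cell cycle genes are known to be read through short words of sequence, and a few are printed to show how the replication and the mitotic members differ. The RefSeq table (GRCh38.p14), which gives 250 bases before to 50 bases after a start, held 45 windows for 34 of the 40 members. Searched on both strands were the E2F type words TTTCCCGC, TTTGGCGC, TTTCGCGC and TTTGCCGC, the cell cycle homology region word TTTGAA (CHR) and CCAAT. Words can overlap, as E2F type words on opposite strands did in MCM6 and MCM2, an E2F type word and CCAAT in MCM7, and CHR and CCAAT in MKI67. An E2F type word was present for 13 of 19 replication, precursor, E2F and cyclin E members (68.4%), for 2 of 15 mitotic members (13.3%) and for 3.99% of all 27305 genes of the table. CHR was present for 10 of 15 mitotic members (66.7%), 1 of 19 of the others (5.26%) and 18.2% of all genes. CCAAT was present for 27 of 34 members (79.4%) and 39.7% of all genes. A match describes letters only. The 250 bases before the start are shown 5′ to 3′ on the strand of the gene, with E2F type, CHR and CCAAT words of either strand in capitals. MCM6 (minus strand, chr2:135876444-135876693) has 4 E2F type words, which overlap in pairs on opposite strands, and 2 CCAAT, and PCNA (minus strand, chr20:5126623-5126872) has 1 and 3. CDK1 (plus strand, chr10:60778081-60778330) has 1 CHR and 1 CCAAT, and MKI67 (minus strand, chr10:128126424-128126673) has 2 and 2. TICRR (plus strand, chr15:89575219-89575468) has 5 CCAAT and neither of the other words. CDK1, TICRR and PCNA have a second start in the table, which is not shown, and in the window of the shown CDK1 start an E2F type word lies after the start.
MCM6: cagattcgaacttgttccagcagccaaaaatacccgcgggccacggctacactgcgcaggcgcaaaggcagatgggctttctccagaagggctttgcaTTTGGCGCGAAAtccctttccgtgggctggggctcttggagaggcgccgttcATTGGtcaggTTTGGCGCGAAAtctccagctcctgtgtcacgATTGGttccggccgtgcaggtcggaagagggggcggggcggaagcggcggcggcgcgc
PCNA: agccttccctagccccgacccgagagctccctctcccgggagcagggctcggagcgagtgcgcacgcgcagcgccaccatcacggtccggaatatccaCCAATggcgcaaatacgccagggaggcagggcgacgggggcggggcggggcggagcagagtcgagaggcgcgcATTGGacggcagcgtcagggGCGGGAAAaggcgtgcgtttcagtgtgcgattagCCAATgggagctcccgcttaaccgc
CDK1: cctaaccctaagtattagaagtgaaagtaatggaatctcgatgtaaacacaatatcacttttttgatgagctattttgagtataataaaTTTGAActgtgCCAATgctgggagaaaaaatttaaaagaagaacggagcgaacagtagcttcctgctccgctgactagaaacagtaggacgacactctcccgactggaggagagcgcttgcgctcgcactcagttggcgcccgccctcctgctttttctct
MKI67: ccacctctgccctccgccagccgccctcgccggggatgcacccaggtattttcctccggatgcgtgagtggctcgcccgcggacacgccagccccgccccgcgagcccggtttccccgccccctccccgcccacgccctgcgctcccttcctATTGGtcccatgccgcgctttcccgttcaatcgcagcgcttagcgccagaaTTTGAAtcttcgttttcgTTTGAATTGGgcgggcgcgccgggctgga
TICRR: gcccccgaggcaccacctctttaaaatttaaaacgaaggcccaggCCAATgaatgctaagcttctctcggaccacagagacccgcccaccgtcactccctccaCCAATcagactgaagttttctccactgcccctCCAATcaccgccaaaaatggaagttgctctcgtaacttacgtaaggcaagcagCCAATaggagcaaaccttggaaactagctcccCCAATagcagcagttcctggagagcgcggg

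Per kilobase of exon, replication members stood at both ends of the list. The level was highest for MCM7 (12.7 CPM per kilobase in experiment 1 and 19.9 in experiment 2), RRM1 (10.8 and 11.3), PCNA (9.65 and 15.7), MCM4 (5.85 and 6.19) and MCM3 (5.31 and 7.20). The highest mitotic members were CCNB1 (2.42 CPM per kilobase in experiment 1 and 2.54 in experiment 2) and TPX2 (2.16 and 1.52), and MKI67 stood at 1.40 and 0.111. By the mean of the 2 experiments, the lowest were TICRR, CDC45, MCM10, CCNE2, RRM2 and E2F2, none of them mitotic. TICRR had 0.299 CPM per kilobase in experiment 1 and 0.0470 in experiment 2, and E2F2 0.0626 and 0.0187. In experiment 1, 39 of 40 members passed the filter on low counts and E2F2 did not, and 27 of 40 would have passed in the WT libraries alone. In experiment 2 all 40 passed.

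Over the whole list, untreated lines differed more in the mitotic than in the replication members. The 18 mitotic members summed to 40.0 ± 2.80 CPM in untreated WT (SD, n = 4), 60.7 ± 4.17 in DLK KO, 84.3 ± 5.25 in double KO and 166 ± 12.0 in LZK KO. These sums are 1.52, 2.11 and 4.15 times that of WT, and no library of a knockout line overlapped with a WT library. The 22 replication, precursor, E2F and cyclin E members summed to 186 ± 6.17 CPM in WT. Their sums were 221 ± 8.07 CPM for DLK KO, 245 ± 2.34 for LZK KO and 257 ± 9.59 for double KO, which is 1.18 to 1.38 times WT. The order of the lines was not the same in both sums, as LZK KO was highest in the mitotic sum and double KO had the highest mean in the other, where its libraries (252 to 272 CPM) and those of LZK KO (242 to 248) did not overlap.

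**Figure D1:**
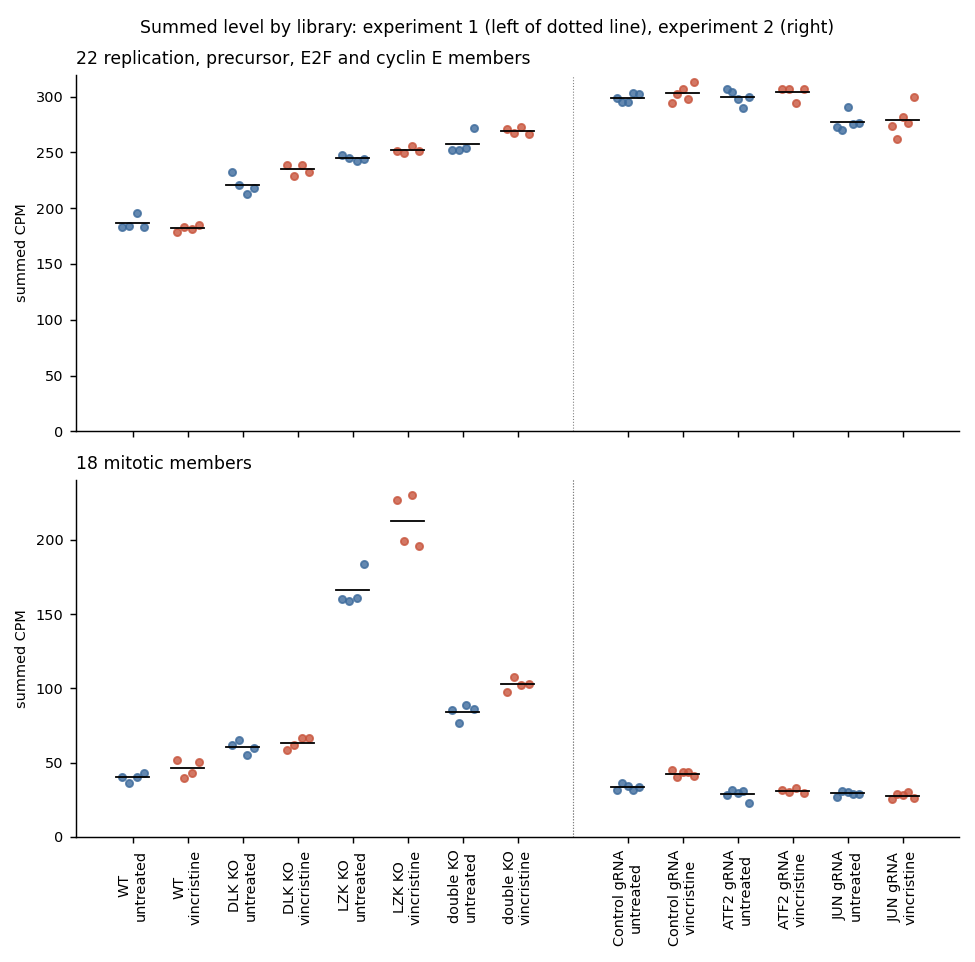
Summed CPM of the 22 replication, precursor, E2F and cyclin E members (upper) and of the 18 mitotic members (lower) in each library (point; blue untreated, red vincristine), with the group mean as a bar, for the 8 groups of experiment 1 and the 6 of experiment 2. The mitotic sum was highest in LZK KO, 166 CPM untreated and 213 with vincristine, against 40.0 and 46.3 in WT.

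The first comparison asks how the members stood in each untreated knockout line against untreated WT. In LZK KO, 30 of 38 members tested other than TICRR were higher and 0 lower (called at an adjusted p under 0.05 in edgeR, Benjamini and Hochberg over all genes), where 33.9% of all genes were called, 3120 higher and 3068 lower. The median log2 fold change was 1.18 over the members and 0.01 over all genes. All 7 mitotic cyclins and kinases and all 11 spindle, kinetochore, checkpoint and chromosome structure members were called higher, with medians of 1.36 and 2.30. Some members passed the filter only through a line where they are high, so the 26 that WT alone would have kept were counted apart, and 21 of these were higher and 0 lower, with a median of 0.84. CDK1, AURKB, CDC20, RRM2, CDC45 and CCNE2 passed it only through LZK KO libraries, so their values in comparisons with LZK KO are a description. The counts of 30, 7 and 11 above include such members, and for these the call is not read as a test.

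CDK1, the kinase that starts mitosis, stood at 0.0956, 0.280, 0.0702 and 0.0993 CPM in the 4 untreated WT libraries, which is at most 3 counts in each, and at 3.18, 2.65, 0.925 and 3.18 in those of LZK KO. The groups lay far apart, with a log2 fold change of 4.09 ± 0.51 (SE). TOP2A, the topoisomerase that untangles DNA in mitosis, stood at 1.82, 1.21, 1.19 and 1.89 CPM in WT and at 19.2, 22.4, 19.3 and 22.8 in LZK KO, a log2 fold change of 3.79 ± 0.19 (adjusted p = 1.09e-18). Every LZK KO library was several times above every WT library. AURKB, the kinase of the chromosomal passenger complex, stood at 0, 0.186, 0 and 0.199 CPM in WT, where it had at most 2 counts in a library, and at 1.02, 1.80, 1.39 and 0.942 in LZK KO, a log2 fold change of 3.70 ± 0.64. UHRF1, which keeps DNA methylation through replication, stood at 0.382, 0, 0.562 and 0.894 CPM in WT and at 4.55, 3.37, 4.72 and 4.71 in LZK KO, a log2 fold change of 3.21 ± 0.33 (adjusted p = 4.29e-10). Neither gene had a WT library that reached the LZK KO libraries.

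Among the spindle and checkpoint members of LZK KO, MKI67 (the Ki-67 proliferation marker) had a log2 fold change against WT of 2.78 ± 0.13, ASPM (a spindle pole protein) 2.93 ± 0.23, BIRC5 (survivin) 2.89 ± 0.37 and CENPF (a kinetochore protein) 2.66 ± 0.15. The checkpoint kinases BUB1 and BUB1B stood at 2.30 ± 0.27 and 1.61 ± 0.22, CDC20, which activates the anaphase-promoting complex, at 2.06 ± 0.38, NUSAP1 at 1.73 ± 0.29, TPX2 at 1.19 ± 0.16 and CENPE, a kinetochore motor, at 1.18 ± 0.14. All of these were called, but the value of CDC20 is a description. Among the mitotic cyclins and kinases, CCNB2 had a log2 fold change of 2.23 ± 0.32, AURKA 1.36 ± 0.25, PLK1 1.01 ± 0.23, CCNB1 0.85 ± 0.17 and CCNA2 0.84 ± 0.20. CCNB1, cyclin B1, stood at 4.97, 5.68, 4.99 and 3.48 CPM in WT and at 8.07, 9.38, 6.20 and 11.3 in LZK KO, and CCNA2, cyclin A2, at 3.15, 2.33, 2.74 and 2.68 and 5.12, 3.49, 5.27 and 5.53. TPX2, which activates AURKA on the spindle, stood at 4.11, 4.19, 4.57 and 5.07 CPM in WT and at 7.96, 9.50, 10.5 and 13.0 in LZK KO, and CENPF at 5.93, 4.75, 4.35 and 4.47 and 30.2, 28.4, 29.9 and 34.1. Libraries of these 4 genes did not overlap between the lines.

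The replication members of LZK KO differed less. Of 12 origin licensing and firing members other than TICRR, 7 were higher and 0 lower, with a median log2 fold change of 0.38. MCM10, which helps to start the helicase, was highest at 1.77 ± 0.38, and the called helicase subunits ranged from 0.28 ± 0.07 for MCM7 to 0.61 ± 0.13 for MCM2, with MCM3 at 0.33 ± 0.10, MCM4 at 0.37 ± 0.07 and MCM5 at 0.54 ± 0.18. GINS1 was also higher, at 0.50 ± 0.15. Values for MCM6 (0.24 ± 0.11), CDC6 (0.39 ± 0.23), CDC45 (0.90 ± 0.46), CDT1 (0.36 ± 0.47) and GINS2 (0.23 ± 0.21) did not pass the test. MCM7 stood at 45.0, 41.4, 45.3 and 42.8 CPM in WT and at 56.2, 49.8, 55.6 and 50.9 in LZK KO, and MCM3 at 12.0, 15.0, 15.5 and 14.6 and 16.4, 17.8, 18.9 and 18.6. The groups of both genes were close but did not overlap. Leaving out 1 library ended the call of MCM3 without replicate 1 of WT untreated, or replicate 3 of LZK KO untreated (adjusted p from 0.0584 to 0.0619). That of MCM5 was lost without replicate 3 of WT untreated, or replicate 3 of LZK KO untreated (adjusted p from 0.0521 to 0.0879), and with no filter on low counts (adjusted p = 0.0550).

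Of the 5 precursor, clamp and maintenance methylation members, 4 were higher in LZK KO, RRM2 among them as a description only. The dTMP-making enzyme TYMS had a log2 fold change of 2.16 ± 0.28, and RRM2, the ribonucleotide reductase subunit that is made in S phase, one of 2.34 ± 0.54 with at most 3 counts in each WT library. RRM1, the subunit that is kept outside S phase, stood at 34.8, 35.8, 39.0 and 30.3 CPM in WT and at 50.0, 53.2, 40.6 and 47.8 in LZK KO, a log2 fold change of 0.45 ± 0.09 (adjusted p = 2.59e-04). PCNA stood at 15.9, 13.3, 12.7 and 10.7 CPM in WT and at 15.9, 16.6, 14.4 and 17.0 in LZK KO, where 0.28 ± 0.14 did not pass the test (adjusted p = 0.144). The libraries of RRM1 lay apart and those of PCNA overlapped. Of the E2F factors and cyclin E, E2F1 was higher, from 1.24, 1.30, 1.47 and 1.39 CPM in WT to 3.07, 2.77, 3.42 and 3.06 in LZK KO (log2 fold change 1.18 ± 0.25, adjusted p = 2.42e-04). CCNE1, cyclin E1, stood at 4.68, 4.94, 4.49 and 6.66 CPM in WT and at 3.41, 4.69, 5.09 and 4.12 in LZK KO (-0.24 ± 0.17, not called), CCNE2 had 0.58 ± 0.55 (not called), and E2F2, not tested, had means of 0.252 and 0.516 CPM.

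In untreated DLK KO, 14 of 38 members other than TICRR were higher than in WT and 1 lower, where 34.5% of all genes were called, 3017 higher and 3267 lower. The median log2 fold change was 0.46 over the members, and all 3 knockout comparisons share the 4 untreated WT libraries. CDK1 stood at 0.765, 0.598, 0.707 and 0.108 CPM (1.98 ± 0.66 on the log2 scale against WT, adjusted p = 0.0172) and UHRF1 at 1.53, 1.60, 0.972 and 1.40 (1.54 ± 0.39, adjusted p = 0.00188). TOP2A stood at 3.92, 4.29, 4.24 and 3.66 CPM (1.42 ± 0.23, adjusted p = 3.65e-06) and CENPF at 10.7, 14.7, 9.46 and 10.5 (1.22 ± 0.16, adjusted p = 1.34e-07). The CDK1 libraries overlapped with WT, and those of the other 3 did not. CDK1 lay below the filter cutoff of 0.971 CPM in these libraries, and it passed the filter only through LZK KO. ASPM (1.08), MKI67 (0.88), BUB1 (0.82), GINS1 (0.74), MCM3 (0.57), TPX2 (0.54), RRM1 (0.54), CCNE1 (0.47), MCM2 (0.47) and MCM4 (0.32) were higher too. MCM6, a subunit of the same helicase ring, was the member that was lower, at 12.6, 11.4, 14.3 and 12.1 CPM in WT and 6.22, 7.18, 4.51 and 6.24 in DLK KO (-1.07 ± 0.12, adjusted p = 1.68e-09). Every DLK KO library of MCM6 was below every WT library. The 23 other members tested had log2 fold changes from -0.75 (CDT1) to 1.91 (AURKB, at most 2 counts in a WT library). Leaving out 1 library ended the calls of CDK1 without replicate 3 of WT untreated, or replicate 1 of DLK KO untreated (adjusted p from 0.0567 to 0.0619), and of CCNE1 without replicate 3 of WT untreated, or replicate 4 of DLK KO untreated (adjusted p from 0.0531 to 0.0605). BUB1 lost its call without replicate 1 or 4 of WT untreated, or replicate 1, 2 or 4 of DLK KO untreated (adjusted p from 0.0651 to 0.153), and with no filter on low counts (adjusted p = 0.129) and when only the compared groups were fitted (adjusted p = 0.0593) and with DESeq2 (adjusted p = 0.0873).

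In untreated double KO, 21 of 38 members other than TICRR were higher than in WT and 1 lower, where 45.7% of all genes were called, 4311 higher and 4023 lower. The median log2 fold change was 0.65 over the members. AURKB stood at 0.416, 0.401, 0.336 and 0.279 CPM (1.88 ± 0.79, adjusted p = 0.0497), MKI67 at 15.8, 13.6, 17.1 and 15.6 against 5.54, 3.82, 4.78 and 5.17 in WT (1.68 ± 0.13, adjusted p = 2.07e-13). AURKA, the spindle pole kinase, stood at 3.54, 3.61, 4.03 and 5.77 CPM against 0.765, 1.30, 1.97 and 1.09 in WT (1.67 ± 0.24, adjusted p = 3.75e-07), and UHRF1 at 1.87, 1.04, 1.34 and 1.68 (1.64 ± 0.38, adjusted p = 4.90e-04). No double KO library of these 4 genes was as low as a WT library. AURKB, however, lay below the filter cutoff of 0.971 CPM in all of these libraries, and it passed the filter only through LZK KO. CCNA2 went the other way, at 2.08, 1.28, 1.34 and 1.68 CPM, all below the WT libraries (-0.79 ± 0.23, adjusted p = 0.00492). E2F1 (1.60), CENPF (1.57), TOP2A (1.53), ASPM (1.31), BUB1B (1.27), CENPE (1.18), TYMS (1.11), BUB1 (1.06), TPX2 (0.79), MCM4 (0.76), MCM2 and MCM3 (0.65 each), CCNE1 (0.63), MCM7 (0.61), CCNB1 (0.51), GINS2 (0.49) and RRM1 (0.23) were higher. The other 16 members tested ranged from -0.49 (PLK1) to 1.36 (CDK1). AURKB lost its call without replicate 1 or 3 of WT untreated, or replicate 1, 2, 3 or 4 of double KO untreated (adjusted p from 0.0579 to 0.169), and with RLE factors (adjusted p = 0.0507) and with no filter on low counts (adjusted p = 0.0676) and with DESeq2 (adjusted p = 0.0724). RRM1 lost it without replicate 1, 2 or 4 of WT untreated, or replicate 1, 2, 3 or 4 of double KO untreated (adjusted p from 0.0523 to 0.170), and with RLE factors (adjusted p = 0.0510) and with no filter on low counts (adjusted p = 0.0560) and with DESeq2 (adjusted p = 0.0749). GINS2 lost it without replicate 2 or 3 of WT untreated, or replicate 1, 2 or 4 of double KO untreated (adjusted p from 0.0605 to 0.0989), and with no filter on low counts (adjusted p = 0.110) and with DESeq2 (adjusted p = 0.102), and CCNB1 without replicate 4 of WT untreated, or replicate 1 of double KO untreated (adjusted p from 0.0666 to 0.0701).

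**Figure D2:**
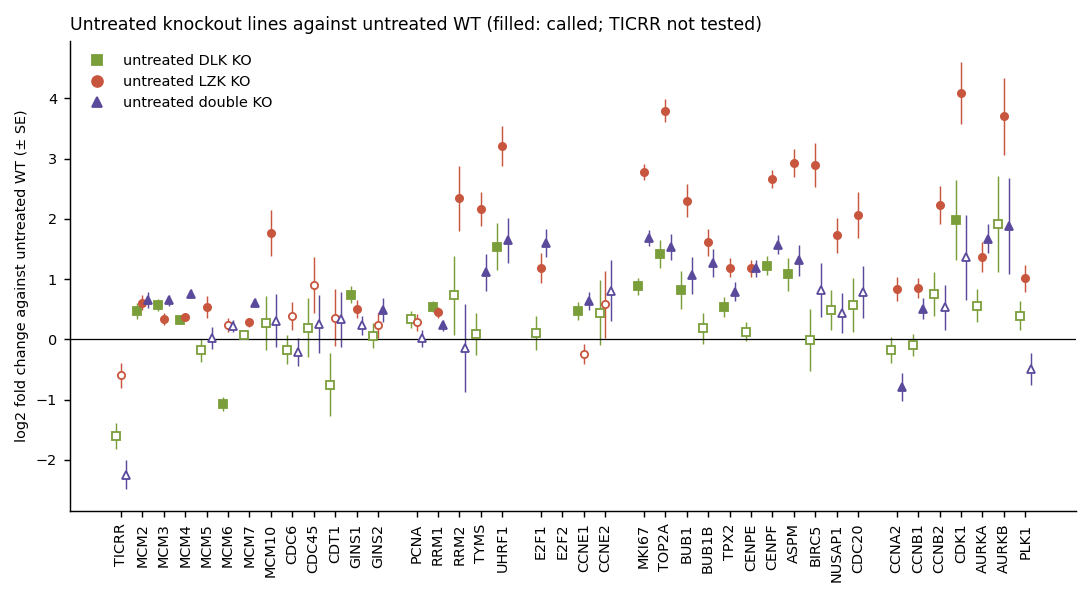
Fitted log2 fold change (± SE) of each member in untreated DLK KO (squares), LZK KO (circles) and double KO (triangles) against untreated WT, n = 4 libraries in each group, with members grouped by role and filled symbols for those called. Circles lie highest for the mitotic members on the right, up to 4.09 for CDK1, which passed the filter only through LZK KO, and E2F2 was not fitted.

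TICRR, given as a description against WT, had a lower mean in all 3 untreated knockout lines. It stood at 6.02, 5.87, 6.39 and 4.37 CPM in WT, at 2.96, 4.69, 3.24 and 4.24 in LZK KO, at 1.53, 1.80, 2.30 and 1.83 in DLK KO and at 1.04, 1.20, 1.09 and 1.40 in double KO. The libraries of DLK KO and double KO were all below those of WT, and of LZK KO 1 library lay inside the WT range and the other 3 below it. Between the knockout lines TICRR was tested, in comparisons that were added after the data were seen. It was higher in LZK KO than in DLK KO (log2 1.00 ± 0.24, adjusted p = 0.00103) and than in double KO (1.66 ± 0.26, adjusted p = 1.90e-06). KIF7, which shares exon bases with TICRR on the opposite strand, was lower in untreated DLK KO than in WT (log2 -0.53 ± 0.18, called), beside -1.60 for TICRR, and higher in LZK KO than in DLK KO (0.48 ± 0.19, called), beside 1.00. In the other contrasts KIF7 was not called. It had -0.16 ± 0.18 in double KO against WT, beside -2.25 for TICRR, and -0.05 ± 0.18 in LZK KO against WT, beside -0.60. In LZK KO against double KO it had 0.11 ± 0.18, beside 1.66.

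The differences among the knockout lines, compared with no WT library in the contrast, were added after the data were seen. Against DLK KO, untreated LZK KO had 27 of 39 members higher and 2 lower, where 38.5% of all genes were called, and against double KO it had 21 higher and 4 lower, where 39.2% were called. Both comparisons share the LZK KO libraries. Of the 27 members that WT alone would have kept, 18 were higher and 2 lower than in DLK KO, and 13 higher and 4 lower than in double KO. All 18 mitotic members were higher than in DLK KO, and 14 of 18 were higher than in double KO, but CDK1, AURKB and CDC20 among them passed the filter only through LZK KO. TOP2A was 5.17 times its level in DLK KO (log2 2.37 ± 0.16, adjusted p = 7.41e-15) and 4.78 times that in double KO (2.26 ± 0.16, adjusted p = 1.45e-14), where its libraries stood at 5.51, 3.21, 4.61 and 4.28 CPM. BIRC5 stood at 3.53, 3.49, 3.52 and 2.83 CPM in LZK KO, 0.765, 0.499, 0.354 and 0.108 in DLK KO and 0.936, 0.642, 0.419 and 1.21 in double KO, so that no library of the other lines reached it (log2 2.90 ± 0.37 and 2.07 ± 0.33, adjusted p = 5.76e-08 and 2.84e-06). CDK1 had log2 differences of 2.10 ± 0.40 and 2.72 ± 0.43, with 0.624, 0.401, 0.252 and 0.186 CPM in double KO.

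TYMS stood at 5.80, 3.61, 4.26 and 2.35 CPM in LZK KO, 0.861, 1.10, 1.15 and 0.645 in DLK KO and 2.81, 1.52, 1.68 and 1.86 in double KO, with log2 differences of 2.07 ± 0.28 (adjusted p = 1.43e-07) and 1.05 ± 0.24 (adjusted p = 6.53e-04). The libraries of TYMS were apart from those of DLK KO and overlapped with those of double KO. RRM2 stood at 1.14, 1.68, 0.740 and 0.706 CPM in LZK KO and at 0.104, 0.241, 0.168 and 0.186 in double KO, which is at most 3 counts a library (2.48 ± 0.55, a description). All 4 LZK KO libraries of RRM2 were above those of double KO. Some members were lower in LZK KO than in the other knockout lines. CCNE1 stood at 6.89, 7.28, 6.28 and 8.17 CPM in DLK KO and 7.59, 9.30, 6.37 and 8.75 in double KO, above every LZK KO library (log2 -0.71 ± 0.16 and -0.88 ± 0.16, adjusted p = 5.00e-04 and 1.94e-05). MCM3 had 22.3, 23.5, 19.7 and 19.5 CPM in DLK KO and 21.3, 20.4, 23.4 and 24.5 in double KO (-0.24 ± 0.10 and -0.32 ± 0.09, adjusted p = 0.0401 and 0.00636). MCM4 stood at 38.8, 39.3, 40.9 and 39.6 CPM in LZK KO and 49.9, 53.2, 48.8 and 55.0 in double KO (-0.38 ± 0.07, adjusted p = 3.99e-05), and MCM7 at 62.4, 65.3, 68.4 and 70.9 in double KO (-0.33 ± 0.07, adjusted p = 1.01e-04). In each of these the double KO libraries lay above those of LZK KO. Against DLK KO, the calls of MCM3, MCM7 and PLK1 ended without some single libraries. That of MCM3 ended without replicate 1 or 2 of DLK KO untreated, or replicate 1 of LZK KO untreated (adjusted p from 0.0732 to 0.126), and with no filter on low counts (adjusted p = 0.126) and when only the compared groups were fitted (adjusted p = 0.0516). MCM7 lost its call without replicate 3 or 4 of DLK KO untreated, or replicate 3 of LZK KO untreated (adjusted p from 0.0603 to 0.0888), and with no filter on low counts (adjusted p = 0.186) and when only the compared groups were fitted (adjusted p = 0.0817), and PLK1 without replicate 2, 3 or 4 of DLK KO untreated, or replicate 3 or 4 of LZK KO untreated (adjusted p from 0.0546 to 0.102). The value of RRM2 against DLK KO is a description, and it too depended on replicate 2 of LZK KO untreated. Against double KO, CDC6 lost it without replicate 1 or 4 of LZK KO untreated, or replicate 2, 3 or 4 of double KO untreated (adjusted p from 0.0583 to 0.204), and with no filter on low counts (adjusted p = 0.109) and when only the compared groups were fitted (adjusted p = 0.0555) and with DESeq2 (adjusted p = 0.0815). MCM5 lost it without replicate 3 of LZK KO untreated, or replicate 1 of double KO untreated (adjusted p from 0.0831 to 0.0844), and with no filter on low counts (adjusted p = 0.0770), and TPX2 without replicate 3 or 4 of LZK KO untreated, or replicate 1, 2 or 4 of double KO untreated (adjusted p from 0.0737 to 0.218), and with no filter on low counts (adjusted p = 0.0708).

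Markers of other cell types also differed between the untreated lines. The 8 pluripotent stem cell markers summed to 10.4 to 12.7 CPM in untreated WT, to 19.3 to 23.2 for DLK KO, 36.6 to 49.5 for LZK KO and 67.8 to 72.4 for double KO. Of the 4 that could be tested, 2, 3 and 3 were higher than in WT in those lines, where 34.5%, 33.9% and 45.7% of all genes were called. DNMT3B had a mean of 7.07 CPM in WT and 25.8 in LZK KO, and LIN28A 1.88 CPM in WT and 53.4 in double KO, while the defining markers POU5F1 (0.195 CPM) and NANOG (0.0231) were near 0 in LZK KO and TDGF1 and ZFP42 were at 0 in every library of it. The 8 neural progenitor markers summed to 783 to 830 CPM in WT, and to 233 to 302 for DLK KO, 565 to 722 for LZK KO and 308 to 318 for double KO. NES had means of 717 CPM in WT, 516 with LZK KO and 92.1 with double KO. All 8 were called in LZK KO, 6 higher and 2 lower, beside 33.9% of all genes. HES5 stood at 0.472 CPM in WT and 5.12 in LZK KO, and SOX9 at 3.58 and 8.63. In double KO 4 were higher and 2 lower, beside 45.7% of all genes called, and in DLK KO 3 and 3, beside 34.5%. The 11 astrocyte and oligodendrocyte markers summed to 25.8 to 30.1 CPM in WT and 40.7 to 46.2 in LZK KO, and the 8 mesenchymal markers to 3.06 to 6.11 and 3.89 to 5.37. Of 7 astrocyte and oligodendrocyte markers tested, 3 were higher and 1 lower in LZK KO, beside 33.9% of all genes called. GFAP, OLIG1 and SOX10 had at most 3 counts in its untreated libraries. The part of such cells in the level of the members was not tested.

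The genes around a member were compared with it. For most members the tested genes within 5 Mb had a median log2 fold change near 0, and in LZK KO these medians ran from -0.17 to 0.31. In DLK KO the 30 neighbours of MCM6 on chromosome 2 had a median of -0.81, with 20 called lower, beside -1.07 for MCM6 itself, and the 60 neighbours of CCNB1 on chromosome 5 a median of -0.90, with 48 called lower, beside -0.09 for CCNB1. In double KO the 84 neighbours of PLK1 on chromosome 16 had a median of -0.96, with 70 called lower, beside -0.49 for PLK1. On chromosome 20 in double KO the 34 neighbours of AURKA had a median of 0.69 (26 called higher), the 109 of E2F1 one of 0.40 (53 higher) and the 84 of TPX2 one of 0.38 (38 higher). The 30 neighbours of TYMS had a median of 0.47 in double KO, with 12 called higher, beside 1.11 for TYMS, and of 0.33 in DLK KO, with 11 called higher, beside 0.09. The part of such regions in the members' values was not tested.

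**Figure D3:**
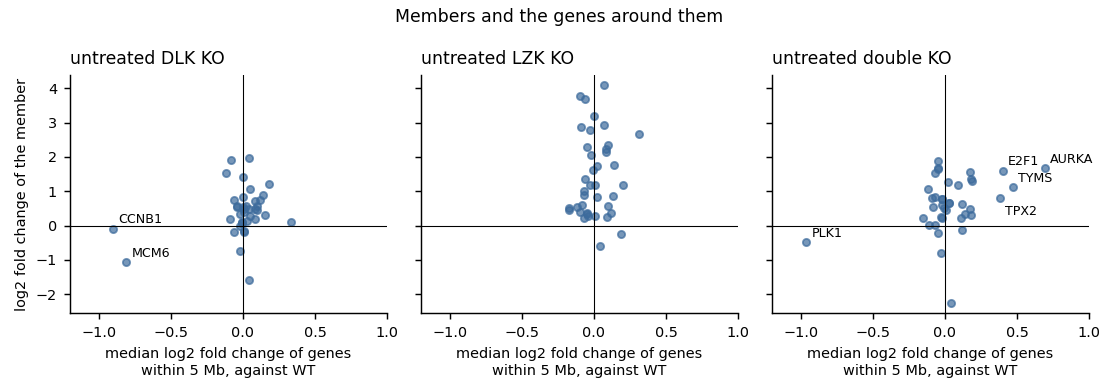
Log2 fold change of each member (vertical) against the median of the genes tested within 5 Mb of it (horizontal), in each untreated knockout line against untreated WT. MCM6, CCNB1 and TYMS in DLK KO and PLK1, AURKA, E2F1, TYMS and TPX2 in double KO lie away from a neighbour median of 0, and no member does in LZK KO beyond 0.31.

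Genes of the same pathways outside the list were counted in the same lines, where 33.9% of all genes were called in LZK KO, 45.7% in double KO and 34.5% in DLK KO. Of 41 other mitosis genes tested, 30 were higher and 1 lower in untreated LZK KO than in WT (median log2 fold change 1.10), 22 and 3 in double KO and 6 and 3 in DLK KO. In LZK KO the highest were NEK2 (3.38 ± 0.69), a centrosome kinase, UBE2C (3.01 ± 0.59), the ubiquitin-conjugating enzyme of the anaphase-promoting complex, and DLGAP5 (2.84 ± 0.37), and the lower one was the condensin subunit SMC2 (-0.42 ± 0.08). The 42 other mitosis genes summed to 252 to 266 CPM in untreated WT, 277 to 302 in DLK KO, 301 to 346 in LZK KO and 343 to 366 in double KO. The mean of this sum was highest in double KO (353 CPM, against 322 in LZK KO), unlike that of the 18 mitotic members. Of 34 other replication genes, 15 were higher and 0 lower in LZK KO (median 0.34), 12 and 0 in double KO, and 5 and 2 in DLK KO. DTL (1.73 ± 0.41) and the checkpoint adaptor CLSPN (1.07 ± 0.14) were among the highest in LZK KO. Of 21 CDK inhibitors and G1 regulators, 7 were higher and 6 lower in LZK KO. CDKN1A, which encodes the CDK inhibitor p21, was lower in LZK KO (-2.21 ± 0.41) and in double KO (-2.29 ± 0.39), CCND2 (cyclin D2) was lower in DLK KO (-0.44 ± 0.07), LZK KO (-0.92 ± 0.07) and double KO (-2.28 ± 0.07), and CDK6 was higher in all 3 (0.78 ± 0.17, 1.57 ± 0.16 and 1.37 ± 0.16).

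Vincristine blocks cells in mitosis by way of the spindle, and the next comparisons ask what it did to the members within each line. In WT, where the contrast led to the list and values are a description only, TICRR went from 6.02, 5.87, 6.39 and 4.37 CPM untreated to 1.32, 0.809, 1.04 and 1.08 with vincristine. Every vincristine library was below every untreated library, and the fitted log2 fold change was -2.42, or -2.43 without replicate 4 of WT with vincristine. The same gene stood at 1.84, 3.84, 2.62 and 2.38 CPM in DLK KO with vincristine, 2.55, 1.78, 2.66 and 3.51 in LZK KO and 0.883, 1.23, 2.08 and 0.845 in double KO, and in each of these lines the libraries with and without drug overlapped. In experiment 2 TICRR was below 1 CPM in every library, with a mean of 0.646 CPM in untreated Control gRNA and 0.398 with vincristine. Log2 fold changes of TICRR were 0.52 ± 0.25 in DLK KO, -0.52 ± 0.23 in LZK KO, 0.11 ± 0.30 in double KO. They were -0.70 ± 0.70 with Control gRNA, -0.38 ± 0.78 with ATF2 gRNA and -1.53 ± 0.73 with JUN gRNA, and none of these 6 passed the test in edgeR, where the lowest adjusted p was 0.170, while 3 had an unadjusted p under 0.05 (DLK KO, LZK KO and JUN gRNA).

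TICRR (chromosome 15, 89575482 to 89631056, plus strand, GRCh38) shares 589 exon bases, 7.01% of its exon length, with KIF7 on the opposite strand. The kit is stranded, but whether counting used the strand is not given in the sources used here, so reads in the shared bases cannot be told apart. KIF7 stood at 17.2, 17.3, 14.9 and 18.9 CPM in untreated WT and 26.1, 22.2, 23.3 and 8.73 with vincristine, a log2 fold change of 0.25 ± 0.17 that has the opposite sign to that of TICRR. In the vincristine libraries KIF7 was above the untreated range in 3 and below it in 1, which was replicate 4, the library that stood apart.

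**Figure D4:**
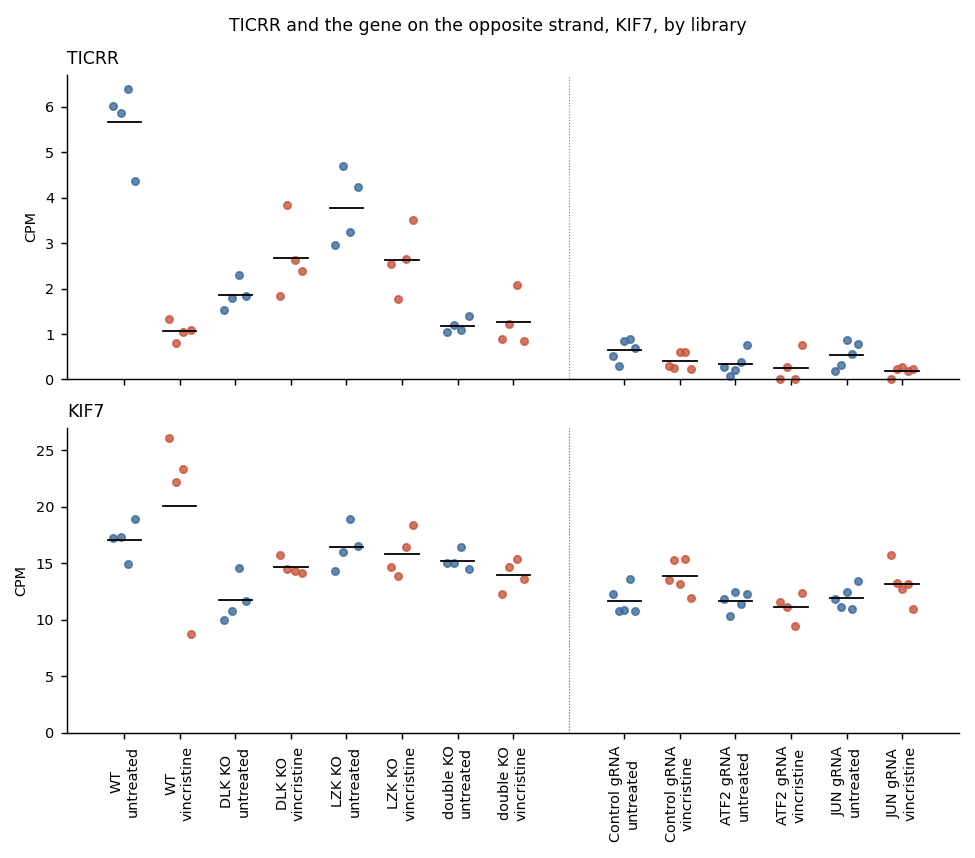
CPM of TICRR (upper) and of the overlapping gene KIF7 (lower) in each library (point; blue untreated, red vincristine) with the group mean as a bar, experiment 1 left and experiment 2 right of the dotted line. The WT mean of TICRR is 5.66 CPM untreated and 1.06 with vincristine, and every library of experiment 2 is below 1 CPM.

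The other members had both signs in WT with vincristine. In that contrast 9 of 39 members and 30.2% of all genes had an adjusted p under 0.05, and nothing is read from this count. Lower fitted values included those of CCNE1 (-1.02), CDC45 (-0.73), PCNA (-0.64), BUB1B (-0.63), GINS2 (-0.59) and CCNB1 (-0.58), and higher ones those of CDT1 (0.85), AURKB (0.84), TOP2A (0.83), CCNB2 (0.81), CDC6 (0.75) and CCNA2 (0.68). Without replicate 4 of WT with vincristine AURKB moved from 0.84 to 0.05 and CDC45 from -0.73 to -1.06, and the other 10 of these kept their sign, from -0.96 for CCNE1 to 1.05 for CDT1. CCNE1 stood at 2.94, 2.16, 2.87 and 2.16 CPM with vincristine, all below the untreated libraries, and PCNA at 5.67, 9.62, 8.43 and 10.0, also all below. E2F1 had 1.01, 1.53, 0.782 and 0.755 CPM and CCNB1 2.63, 2.70, 3.04 and 4.53, while MCM7 had 54.0, 53.2, 46.9 and 48.1 and CCNA2 3.75, 3.87, 4.78 and 5.18. The 18 mitotic members summed to 39.4 to 52.1 CPM with vincristine and 36.3 to 43.0 without, and the groups overlapped. In the same contrast CDKN1A had a log2 fold change of 3.24 ± 0.22, from a mean of 2.48 CPM untreated to one of 23.3 CPM with vincristine.

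In the knockout lines few members passed the test for vincristine. In DLK KO, 1 of 39 members rose and 0 fell, where 6.53% of all genes were called. This was MCM7, at 50.3, 45.4, 44.5 and 43.2 CPM untreated and 63.3, 57.9, 55.1 and 56.5 with vincristine, with no overlap (0.34 ± 0.07, adjusted p = 9.46e-04). In LZK KO, 2 of 39 rose and 0 fell, where 3.88% of all genes were called. MKI67 stood at 32.1, 30.0, 37.1 and 33.4 CPM untreated and 46.8, 40.3, 48.0 and 44.3 with vincristine (0.43 ± 0.10, adjusted p = 0.00871), and CENPF at 30.2, 28.4, 29.9 and 34.1 and 43.5, 36.3, 46.4 and 38.6 (0.43 ± 0.12, adjusted p = 0.0399). The libraries of both genes were apart. All 18 mitotic members had a positive log2 fold change in LZK KO, where the median over all genes was 0.01. Their summed level went from 159 to 184 CPM untreated to 196 to 230 with vincristine, 1.28 times, with no overlap. MKI67 and CENPF, the called members, are part of this sum. In the same LZK KO libraries the sum of the 8 neural progenitor markers went from 565 to 722 CPM untreated to 1073 to 1274 with vincristine. Of these 8, 2 were called higher and 0 lower, with a median log2 fold change of -0.04. In DLK KO the sum went from 233 to 302 CPM to 530 to 646, with 2 called higher and 0 lower (median 0.32), and the mitotic sum moved by a factor of 1.04. In double KO it went from 308 to 318 CPM to 308 to 326, with 0 of 8 called beside 0.0658% of all genes, and the mitotic sum moved by 1.22. The part of these markers in the members' values was not tested. CENPF lost its call without replicate 1, 2 or 3 of LZK KO untreated, or replicate 1 or 3 of LZK KO vincristine (adjusted p from 0.0631 to 0.149).

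In double KO, 0 of 39 members passed the test in edgeR and 0 in DESeq2, where 0.0658% of all genes were called, while 6 members had an unadjusted p under 0.05. The mitotic sum was 1.22 times higher with vincristine, at 97.9 to 108 CPM against 76.7 to 88.7, and these libraries were apart. Of the 18 mitotic members 17 had a positive log2 fold change, the largest being 0.89 ± 0.53 for AURKB, and the median over all genes was -0.01. In DLK KO the mitotic sum moved by a factor of 1.04 with overlapping libraries. For the difference in the vincristine effect, double KO minus DLK KO, 0 of 39 members passed in edgeR, where 1.14% of all genes were called, 4 had an unadjusted p under 0.05, and DESeq2 called 1. When only the compared groups were fitted, 5 members were called in double KO and 3 for this difference. The share of all genes called was not kept for these other fits, so nothing is read from their counts.

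**Figure D5:**
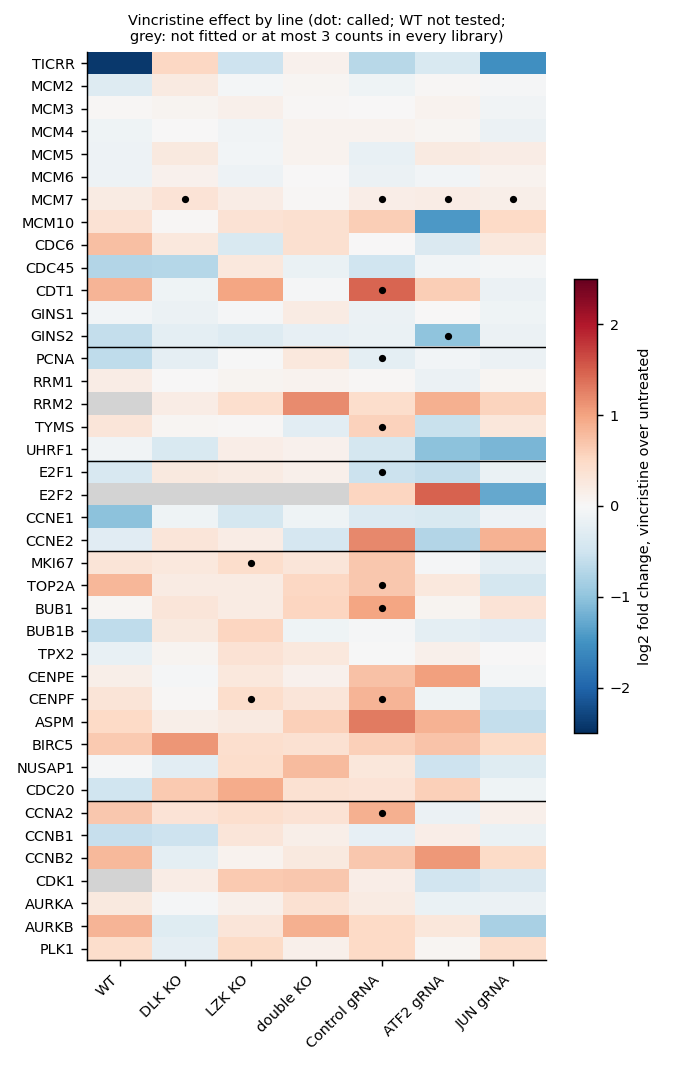
Fitted log2 fold change of each member with vincristine over untreated in each line (columns), in colour from -2.5 (blue) to 2.5 (red), with members in role order between the black lines and a dot where the test was passed. The deepest blue is TICRR in WT (-2.42), a column without dots because it was not tested. Among the lines tested, dots are most frequent in Control gRNA, where 9 of 40 members and 35.3% of all genes were called.

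In experiment 2 vincristine raised 7 of 40 members and lowered 2 in Control gRNA, where 35.3% of all genes were called, 3551 higher and 3767 lower. The median log2 fold change was 0.19 over the members and 0.03 over all genes. CDT1, which loads the MCM ring, stood at 0.270, 0.291, 0.518, 0.108 and 0.453 CPM untreated and 0.897, 1.05, 0.899, 1.41 and 0.323 with vincristine (1.46 ± 0.47, adjusted p = 0.0112). BUB1 stood at 0.602, 0.609, 0.710, 0.909 and 0.453 and 1.22, 1.00, 1.43, 1.31 and 1.54 CPM (0.98 ± 0.38, adjusted p = 0.0399), and CCNA2 at 1.56, 2.14, 2.86, 2.94 and 2.48 and 4.63, 3.91, 4.44, 4.30 and 4.97 (0.89 ± 0.23, adjusted p = 0.00158). The libraries of BUB1 and CCNA2 were apart and those of CDT1 overlapped. CENPF rose from 1.68, 2.04, 3.40, 2.21 and 1.79 CPM to 3.95, 2.62, 4.20, 4.11 and 5.14 (0.84 ± 0.23, adjusted p = 0.00285), with overlap. TOP2A (0.67 ± 0.25), TYMS (0.58 ± 0.22) and MCM7 (0.17 ± 0.05) also rose.

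The members that fell in Control gRNA were E2F1 and PCNA. E2F1 stood at 7.77, 3.33, 7.47, 6.28 and 7.21 CPM untreated and 4.54, 5.15, 4.22, 3.87 and 4.35 with vincristine (-0.54 ± 0.19, adjusted p = 0.0220), and PCNA at 22.6, 24.7, 24.0, 23.3 and 24.5 and 19.7, 19.1, 19.8, 20.1 and 21.8 (-0.25 ± 0.07, adjusted p = 0.00417), where the groups did not overlap. The mitotic sum was 31.3 to 36.2 CPM untreated and 40.1 to 44.8 with vincristine, 1.28 times and apart, while the sum of the other 22 members moved by a factor of 1.01. Leaving out single libraries ended several calls. BUB1 lost it without replicate 1, 2, 3 or 5 of Control gRNA untreated, or replicate 1, 3, 4 or 5 of Control gRNA vincristine (adjusted p from 0.0554 to 0.0991), and with no filter on low counts (adjusted p = 0.110). E2F1 lost it without replicate 1, 3 or 5 of Control gRNA untreated, or replicate 4 of Control gRNA vincristine (adjusted p from 0.0572 to 0.0761). TOP2A lost it without replicate 1 or 5 of Control gRNA untreated, or replicate 4 or 5 of Control gRNA vincristine (adjusted p from 0.0681 to 0.125), and with no filter on low counts (adjusted p = 0.0708). TYMS lost it without replicate 2, 3 or 5 of Control gRNA untreated, or replicate 3 or 4 of Control gRNA vincristine (adjusted p from 0.0522 to 0.119), and with no filter on low counts (adjusted p = 0.0826).

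In ATF2 gRNA 1 member rose and 1 fell of 40 with vincristine, where 6.10% of all genes were called. MCM7 stood at 92.2, 84.2, 87.5, 89.1 and 90.7 CPM untreated and 103, 98.9, 97.5 and 103 with vincristine (0.18 ± 0.05, adjusted p = 0.0250), and GINS2, a subunit of the GINS complex, fell from 2.93, 2.71, 2.49, 2.27 and 3.02 to 0.934, 1.65, 1.18 and 1.54 (-1.01 ± 0.19, adjusted p = 4.45e-04). Both pairs of groups were apart. In JUN gRNA 1 of 40 rose and 0 fell, where 15.9% of all genes were called. This was again MCM7, at 72.6, 76.7, 77.8, 71.8 and 77.0 CPM untreated and 87.3, 72.2, 83.9, 82.7 and 88.0 with vincristine, with overlap (0.14 ± 0.05, adjusted p = 0.0391). The mitotic sum moved by factors of 1.08 in ATF2 gRNA and 0.946 in JUN gRNA, with overlapping libraries in both. MCM7 lost its call in ATF2 gRNA without replicate 2 or 3 of ATF2 gRNA untreated, or replicate 2 or 5 of ATF2 gRNA vincristine (adjusted p from 0.0514 to 0.0738). In JUN gRNA it lost it without replicate 1, 4 or 5 of JUN gRNA untreated, or replicate 1, 3, 4 or 5 of JUN gRNA vincristine (adjusted p from 0.0595 to 0.121), and with no filter on low counts (adjusted p = 0.120) and when only the compared groups were fitted (adjusted p = 0.0816).

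The difference in the vincristine effect from Control gRNA was tested directly. For ATF2 gRNA it was negative for 4 of 40 members and positive for 0, where 20.6% of all genes were called, 2115 higher and 2158 lower. TYMS had -1.13 ± 0.32 (adjusted p = 0.00784), with 2.60, 0.900, 1.48, 1.69 and 1.56 and 2.36, 2.34, 2.45, 2.83 and 2.33 CPM in Control gRNA and 4.04, 2.99, 3.04, 2.69 and 3.15 and 2.93, 2.15, 1.57 and 2.04 in ATF2 gRNA, untreated and with vincristine. CCNA2 had -1.03 ± 0.33 (adjusted p = 0.0216), with 3.20, 3.94, 3.29, 3.10 and 2.49 and 4.43, 2.26, 1.50 and 3.42 CPM in ATF2 gRNA. The vincristine libraries of CCNA2 in Control gRNA stood above the untreated ones, and in ATF2 gRNA the 2 groups overlapped. CENPF had -0.94 ± 0.34 (adjusted p = 0.0401), with 2.40, 2.27, 3.02, 2.84 and 1.77 and 3.02, 1.89, 2.05 and 2.24 CPM in ATF2 gRNA, and GINS2 had -0.84 ± 0.26 (adjusted p = 0.0131), with 5.01, 3.57, 4.38, 6.58 and 3.75 and 3.41, 4.68, 3.66, 4.53 and 4.47 CPM in Control gRNA. Untreated and vincristine libraries of CENPF overlapped in ATF2 gRNA. CCNA2 lost its call without replicate 3 or 4 of ATF2 gRNA vincristine (adjusted p from 0.0519 to 0.0682). CENPF lost it without replicate 1, 2, 4 or 5 of Control gRNA untreated, or replicate 1, 3, 4 or 5 of Control gRNA vincristine, or replicate 3 or 4 of ATF2 gRNA untreated, or replicate 3, 4 or 5 of ATF2 gRNA vincristine (adjusted p from 0.0540 to 0.0818).

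For JUN gRNA minus Control gRNA the difference was negative for 3 of 40 members and positive for 0, where 15.8% of all genes were called, 1808 higher and 1465 lower. The Control gRNA libraries enter both differences. CENPF had -1.34 ± 0.32 (adjusted p = 0.00227), with 1.87, 2.59, 2.94, 2.52 and 3.87 CPM untreated and 1.36, 2.30, 1.41, 2.93 and 1.74 with vincristine in JUN gRNA. TOP2A had -1.11 ± 0.36 (adjusted p = 0.0294), with 0.956, 1.44, 1.76, 1.28 and 1.29 and 0.879, 1.43, 1.26, 0.819 and 0.550 CPM in JUN gRNA and 0.997, 2.65, 2.25, 1.93 and 1.40 and 2.69, 2.62, 2.56, 3.19 and 3.60 in Control gRNA. MCM4, a subunit of the helicase ring, had -0.22 ± 0.08 (adjusted p = 0.0455), with 40.1, 41.4, 42.6, 41.0 and 38.7 and 35.5, 38.4, 38.5, 33.5 and 39.6 CPM in JUN gRNA and 45.1, 42.5, 43.0, 45.3 and 41.9 and 45.1, 46.3, 47.3, 43.9 and 49.1 in Control gRNA. In JUN gRNA the libraries with and without drug overlapped for all 3 genes. TOP2A lost its call without replicate 1 or 5 of Control gRNA untreated, or replicate 5 of Control gRNA vincristine, or replicate 3 of JUN gRNA untreated, or replicate 1 or 5 of JUN gRNA vincristine (adjusted p from 0.0512 to 0.0673), and with no filter on low counts (adjusted p = 0.0571). MCM4 lost it without replicate 2, 3 or 5 of Control gRNA untreated, or replicate 2, 3 or 5 of Control gRNA vincristine, or replicate 2, 3 or 4 of JUN gRNA untreated, or replicate 1 or 4 of JUN gRNA vincristine (adjusted p from 0.0552 to 0.102).

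Without drug, ATF2 gRNA had 1 of 40 members higher and 5 lower than Control gRNA, where 39.9% of all genes were called. TYMS was higher (0.95 ± 0.22, adjusted p = 4.10e-04). GINS2 was lower (-0.80 ± 0.17, adjusted p = 1.39e-04), with no overlap between the 5.01, 3.57, 4.38, 6.58 and 3.75 CPM of Control gRNA and the 2.93, 2.71, 2.49, 2.27 and 3.02 of ATF2 gRNA. CCNE1 was lower, at 5.42, 3.73, 5.24, 5.11 and 5.22 and 2.77, 2.67, 3.48, 2.71 and 3.70 CPM (-0.69 ± 0.17, adjusted p = 0.00101), as was E2F1, with 3.92, 3.43, 3.70, 3.79 and 5.55 CPM in ATF2 gRNA (-0.66 ± 0.19, adjusted p = 0.00442). CCNB1 stood at 7.95, 10.0, 6.64, 7.32 and 8.37 CPM in Control gRNA and 5.72, 6.19, 4.85, 5.99 and 3.91 in ATF2 gRNA, with no overlap (-0.59 ± 0.13, adjusted p = 3.25e-04), and TPX2 was lower too (-0.52 ± 0.16, adjusted p = 0.00789).

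Untreated JUN gRNA had 0 of 40 members higher and 2 lower, where 11.2% of all genes were called. MCM5 stood at 7.25, 8.49, 7.07, 8.96 and 6.78 CPM in Control gRNA and 4.45, 6.13, 5.17, 5.36 and 7.19 in JUN gRNA (-0.45 ± 0.13, adjusted p = 0.0213), and MCM7 at 82.1, 81.0, 78.2, 88.0 and 86.2 and 72.6, 76.7, 77.8, 71.8 and 77.0 (-0.14 ± 0.05, adjusted p = 0.0425). The MCM5 groups overlapped and those of MCM7 did not. The sum over all 40 members was 0.922 times that of Control gRNA in JUN gRNA, with libraries apart, and 0.989 times in ATF2 gRNA, with overlap. MCM5 lost its call without replicate 2 or 4 of Control gRNA untreated, or replicate 1, 3 or 4 of JUN gRNA untreated (adjusted p from 0.0536 to 0.0891). MCM7 lost it without replicate 1, 2, 4 or 5 of Control gRNA untreated, or replicate 1, 2, 4 or 5 of JUN gRNA untreated (adjusted p from 0.0563 to 0.139), and with no filter on low counts (adjusted p = 0.115).

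CDKN1A, from the list of CDK inhibitors, moved in experiment 2 as well. It rose with vincristine in Control gRNA (1.88 ± 0.08) and JUN gRNA (0.78 ± 0.08), and in untreated ATF2 gRNA it was higher than in Control gRNA (2.06 ± 0.08). Of 42 other mitosis genes, 6 rose and 2 fell with vincristine in Control gRNA, where 35.3% of all genes were called, KIF11 (a spindle motor) by 1.17 ± 0.32 among them. In ATF2 gRNA 0 rose and 2 fell, beside 6.10% of all genes called, and in JUN gRNA 0 rose and 1 fell, beside 15.9%. Of 35 other replication genes, 7 rose and 4 fell in Control gRNA, with FEN1, the flap endonuclease, at -0.40 ± 0.06. The neural progenitor sum moved in the same libraries, from 1329 to 1421 CPM untreated to 2564 to 2660 with vincristine in Control gRNA, from 968 to 1092 to 1671 to 1779 in JUN gRNA, and from 769 to 843 to 737 to 847 in ATF2 gRNA. Of its 8 markers, 3 were called higher and 0 lower in Control gRNA, 2 and 0 in JUN gRNA and 2 and 0 in ATF2 gRNA. Their median log2 fold changes were 0.55, 0.19 and 0.31. The neuron markers went from 9932 to 10713 CPM untreated to 7318 to 7765 with vincristine in Control gRNA, from 10276 to 10959 to 8322 to 8762 in JUN gRNA, and from 10278 to 10832 to 9925 to 10523 in ATF2 gRNA. The astrocyte and oligodendrocyte markers went from 15.5 to 19.5 CPM to 24.4 to 27.7 in Control gRNA, with SOX10 near 0. The part of these markers in the members' values was not tested.

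Some members share exon bases with another gene. TYMS shares 465 bases (18.8% of its exon length) with ENOSF1 on the opposite strand, and ENOSF1 had log2 fold changes of 1.34 ± 0.25 in untreated double KO against WT, 0.53 ± 0.17 with vincristine in Control gRNA and 0.80 ± 0.17 in untreated ATF2 gRNA against Control gRNA, beside 1.11, 0.58 and 0.95 for TYMS. In LZK KO against WT it was -0.25 ± 0.31 beside 2.16 for TYMS. CCNE2 shares 1629 bases (37.05%) with INTS8, MCM7 shares 392 (8.94%) with AP4M1, CCNA2 254 (9.08%) with EXOSC9, and GINS2 7 (0.21%) with GSE1, all on opposite strands. RRM2 shares 1077 bases (20.23%) with AC007240.1 and BUB1B 457 (10.21%) with BUB1B-PAK6, both on the same strand. PLK1 shares 553 (11.62%) with AC008870.3 on the opposite strand. The mean counts of AC007240.1, BUB1B-PAK6 and AC008870.3 were 0.656, 0.0625 and 0.406 in experiment 1 and 0.483, 0.0690 and 1.48 in experiment 2. AP4M1 was not called for vincristine in any line, and in untreated double KO it was higher (0.34 ± 0.11) as MCM7 was.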

How the data were processed

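RNA of 61 libraries in 14 groups was measured by stranded polyA sequencing, per the labels' protocols. The authors deposited whole-number counts per gene, 1 table for each experiment. The submitters' processing notes name cutadapt 3.4, STAR, featureCounts, Subread 2.0.1 and GRCh38, and the strand setting of counting is not given in the sources used here. The members and lists were chosen with earlier results of these data known. Identifiers were matched to symbols through GENCODE 29 (58275 of 58440). Each experiment was fitted separately with all its groups in edgeR 4.0.16 (R 4.3.3), with TMM factors, a filter on low counts by group (minimum count 10), 1 mean per group and the quasi-likelihood test. P-values were adjusted by Benjamini and Hochberg over all 18235 or 20759 genes tested and called under 0.05. SEs came from the log2 fold change and its F value, as their size over root F. Scripts were tested on simulated data. Values per library were given for TICRR, the 2 members of each role with the highest CPM per kilobase, and up to 4 called members with the highest and 4 with the lowest fold change in a comparison. Alternatives were DESeq2 1.42.0, RLE factors, no filter, only the groups compared, a replicate block, each library left out and, chosen after seeing the data, the WT vincristine libraries left out. In 104 pairs of replicates the lowest chi-square per degree of freedom was 1.58, so each library was counted as a sample. Groups were compared within an experiment only, and members were ranked per kilobase by the mean of the 2 experiments. Counting error is larger for members with few counts.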

Additional observations from a re-analysis of the deposited data

Results flagged for a closer look

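The sums of all 40 members, of the 22 and of the 18, and TICRR, were checked in each of 14 groups for a library far from the others, 56 checks in all, and chance alone picks about 1 in 20. The 22 replication, precursor, E2F and cyclin E members summed to 196 CPM in WT untreated replicate 3, against 183 to 184 in the others, and to 272 in double KO untreated replicate 4, against 252 to 254. In ATF2 gRNA vincristine replicate 4 the same sum was 294 CPM, against 307 in each of the others. The 18 mitotic members summed to 184 CPM in LZK KO untreated replicate 4, against 159 to 161. All 40 members summed to 321 CPM in JUN gRNA untreated replicate 3, against 300 to 305.

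The vincristine effect differed between lines for members that passed the interaction test in edgeR. These were 4 of 40 for ATF2 gRNA, where 20.6% of all genes were called, and 3 of 40 for JUN gRNA, where 15.8% were. The calls of CCNA2 and CENPF for ATF2 gRNA, and of TOP2A and MCM4 for JUN gRNA, ended without some single libraries. Between ATF2 gRNA and Control gRNA the log2 difference was -1.13 for TYMS (adjusted p = 0.00784), -0.84 for GINS2 (adjusted p = 0.0131), -1.03 for CCNA2 (adjusted p = 0.0216) and -0.94 for CENPF (adjusted p = 0.0401). Between JUN gRNA and Control gRNA it was -1.34 for CENPF (adjusted p = 0.00227), -1.11 for TOP2A (adjusted p = 0.0294) and -0.22 for MCM4 (adjusted p = 0.0455).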

How the results depend on the processing

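Of 151 called fold changes, 122 kept their call in every alternative run that tested the gene, 29 lost it in at least 1, and 0 changed sign. A run that gave a gene no test was not counted as a loss. The 151 include members that passed the filter only through LZK KO, whose calls there are not read as tests. With only the compared groups fitted, untreated LZK KO had 26 members called against WT (30 in the main fit). Against DLK KO it had 22 (29), and against double KO 20 (25). As a mean of log2 CPM (pseudocount 0.5), the vincristine ratio over all members was 1.12 in Control gRNA (1.04 by sums) and 0.980 in ATF2 gRNA (1.02 by sums). For the alternative runs the share of all genes called was not kept, so their counts of members have no such share beside them. When only the compared groups were fitted, members called for vincristine were 2 in DLK KO, 5 in double KO and 0 in JUN gRNA, and 3 for double KO minus DLK KO. Without the WT vincristine libraries they were 2 in DLK KO and 1 for double KO minus DLK KO, where DESeq2 gave 1. With no filter they were 0 for vincristine in JUN gRNA and 1 for untreated JUN gRNA against Control gRNA. Same-numbered replicates did not pair (correlations of their deviations from -0.175 to 0.11), and with a replicate block 1 member was called for vincristine in LZK KO, while no other count moved by over 1.5 times. The calls that ended with the block were CENPF for vincristine in LZK KO (adjusted p = 0.0611), AURKB and RRM1 in untreated double KO against WT (0.0601 and 0.0577), and MCM3 in LZK KO against DLK KO (0.0512). The cause of these shifts was not tested.

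Leaving out 1 library at a time, the summed ratio ran from 0.996 to 1.02 in WT, 1.04 to 1.07 in DLK KO, 1.11 to 1.15 in LZK KO, 1.07 to 1.11 in double KO, 1.03 to 1.05 in Control gRNA, 1.01 to 1.03 in ATF2 gRNA and 0.985 to 1.01 in JUN gRNA. Members called for vincristine were 1 to 1 in DLK KO, 1 to 2 in LZK KO, 0 to 0 in double KO, 5 to 9 in Control gRNA, 1 to 4 in ATF2 gRNA and 0 to 1 in JUN gRNA. For the differences in vincristine effect they were 0 to 0 (double KO minus DLK KO), 2 to 4 (ATF2 gRNA) and 1 to 3 (JUN gRNA). Untreated against WT they were 13 to 17 in DLK KO, 28 to 30 in LZK KO and 18 to 21 in double KO. LZK KO against DLK KO gave 27 to 29 and against double KO 23 to 25, and against Control gRNA ATF2 gRNA gave 6 to 8 and JUN gRNA 0 to 2. Depth limits most the members with few counts in WT, such as RRM2, CDK1 and AURKB.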
